A study of Rattus norvegicus with 25 samples.

Results

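The transcripts described here encode subunits of the AMPA and NMDA receptors, the ionotropic glutamate receptors that carry most fast excitatory transmission in the brain. The members were the 10 genes Gria1, Gria2, Gria3, Gria4, Grin1, Grin2a, Grin2b, Grin2c, Grin2d and Grin3a, taken by gene name, ignoring case, from bulk RNA-seq tables of the rat basolateral amygdala (BLA) and dorsal dentate gyrus (DG). Each of the 10 names belonged to 1 of the 26312 gene identifiers in the tables, which carry 19618 distinct names, and all 10 passed the filter on low counts in both regions.

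AMPA receptors assemble as tetramers of the products of Gria1 to Gria4, and the edited product of Gria2 makes the channel nearly impermeable to calcium. NMDA receptors need the obligatory subunit encoded by Grin1, which binds glycine, and partners from Grin2a to Grin2d, which bind glutamate and set the kinetics of the channel, or the glycine-binding subunit encoded by Grin3a, which lowers calcium flux. In forebrain neurons the Grin2b product is prominent early in life and the Grin2a product gains weight as circuits mature, and both receptor families are central to plasticity at amygdala and hippocampal synapses.

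All animals were wild-type adult male Sprague-Dawley rats. Stress-exposed rats were immobilized for 3 h in the presence of a predator scent, while controls received only a change of cage at that time. Tail blood was drawn during the stress, and stress-exposed rats were kept in a separate room for the first nights after it. All rats went through a battery of avoidance and startle tests shortly before their brains were frozen on day 9. Stress-low and stress-high rats were stress-exposed animals picked for low or high composite scores of anxiety-like behavior, and controls spanned the range of control scores, so the stress groups are the ends of a range of behavior rather than random draws. Each library was made from poly-A RNA of pooled tissue punches of the left hemisphere of 1 animal. There were 7 control, 3 stress-low and 3 stress-high libraries of the BLA, and 6 control, 3 stress-low and 3 stress-high libraries of the DG. The study describes 6 control animals picked for sequencing. It also excluded 1 control animal for an error during behavior testing, without giving its number. Whether the 7 BLA control libraries include that animal is not known, so the control set here may differ from that of the study. In the BLA the 3 stress-low animals were numbers 22, 30 and 34 and in the DG numbers 22, 33 and 34, while animals 7, 19 and 20 were stress-high in both. All stress-high animals thus had numbers of 20 or lower and all stress-low animals numbers above 20, with controls on both sides, and an alternative fit took this split as a covariate.

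Totals of the estimated counts ranged from 12709493 to 22801247 in the BLA and from 11656439 to 19477932 in the DG. The control library of animal 2 in the BLA and that of animal 35 in the DG stood apart on the first principal component (46.4 against -17.3 to 12.5 for the other BLA libraries, and 56.0 against -13.7 to 2.28 in the DG) and were left out, which left 12 BLA and 11 DG libraries. The study left out a hippocampal control sample that was flagged for low RNA quality, re-extracted and then stood apart in its principal component analysis. Its text does not give the animal number of that sample. The BLA library of animal 35 was named as a control while its treatment label read stress, and it was kept as a control. Its summed TPM of 7 markers of striatal and central amygdala neurons was 249, and that of stress-low animal 30 was 237, against 89.7 to 131 in the other 10 BLA libraries. The dentate granule cell genes Prox1 and C1ql2 had medians of 73.3 and 336 TPM in the DG against 2.57 and 2.81 in the BLA, while Tdo2, a further gene of that list, lay between 0 and 0.19 TPM in the DG. Calb1, of the same list, did not separate the regions, at 80.8 to 127 TPM in the DG and 97.0 to 160 TPM in the BLA, where its median was the higher. The sum of the 4 measured markers of basolateral amygdala and cortical glutamatergic neurons was 942 to 1379 TPM in the BLA and 1710 to 2221 TPM in the DG. Slc17a7 made up most of that sum (medians 1054 and 1827 TPM), and Neurod6 and Rspo2 also had the higher median in the DG. Tbr1 went the other way, with a median of 36.3 TPM in the BLA and 28.1 TPM in the DG. The choroid plexus gene Ttr was at 0 TPM in all 12 BLA libraries and at most 0.24 TPM in the DG. In bulk tissue, fewer cells of a type and less RNA per cell cannot be told apart.

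Levels are given as TPM, a share of all transcripts that divides a gene's count by its effective length and can therefore be set side by side between genes. In control BLA, Gria2 had the highest mean at 218 ± 23.8 TPM (SD, n = 6), followed by Grin1 at 212 ± 18.8, Gria1 at 210 ± 15.9 and Gria3 at 174 ± 17.6, and each of these overlapped its neighbour in the order. Grin2b stood below them at 59.0 ± 7.45 TPM without overlap. Grin2a (34.2 ± 4.61), Grin3a (32.2 ± 4.87), Gria4 (28.3 ± 3.87) and Grin2c (23.6 ± 1.49) overlapped their neighbours, and Grin2d was the lowest at 4.36 ± 1.35 TPM. The first 4 subunits covered 151 to 250 TPM in the control BLA, and a step led down to the remaining 6.

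In control DG the order was Gria1 at 396 ± 26.9 TPM (SD, n = 5), Grin1 at 338 ± 18.3, Gria2 at 283 ± 13.2, Gria3 at 117 ± 9.50, Grin2a at 89.8 ± 12.0 and Grin2b at 47.6 ± 5.29. Among these, Gria1 and Grin1 overlapped each other and the later steps were without overlap. Grin2c (31.3 ± 6.18) and Gria4 (28.4 ± 3.93) overlapped, Grin2d was at 4.57 ± 0.965 and Grin3a was the lowest at 2.04 ± 0.309 TPM. Grin3a moved by the most places between the regions, from rank 7 in the BLA to rank 10 in the DG, while Gria1 stood at rank 3 in the BLA and rank 1 in the DG. The plot of TPM by library shows these levels with every library of the 3 groups.

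**Figure D1:**
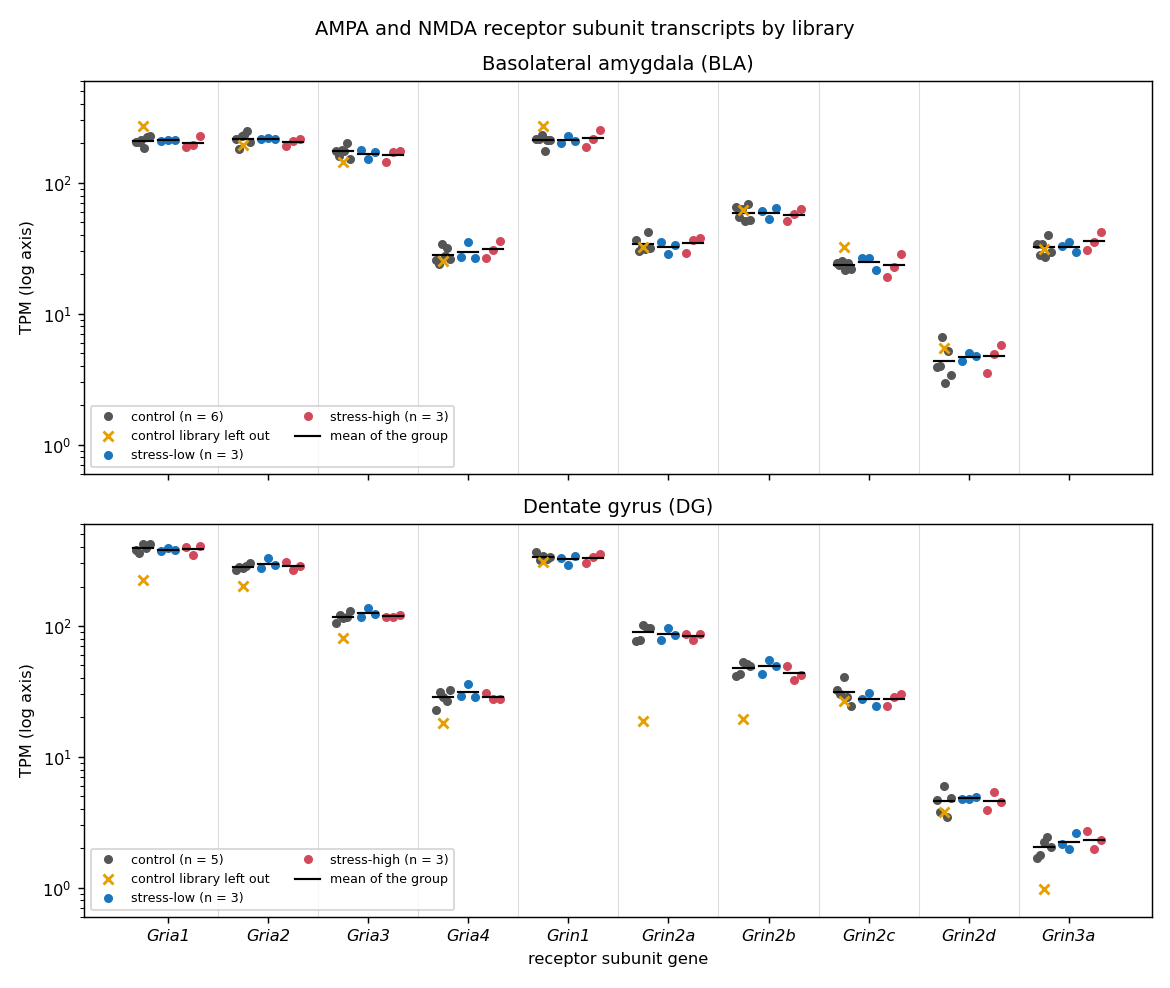
TPM (log axis) of the 10 subunit genes in each library of the BLA (top) and DG (bottom); grey, blue and red points are control, stress-low and stress-high libraries, black lines are group means and orange crosses the control library left out in each region. In the libraries used, the groups overlap for every gene in both regions, while Grin3a sits at 27.3 to 42.2 TPM in the BLA and at 1.70 to 2.73 TPM in the DG.

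The gene models set a limit on these levels. The table lengths ran from 2735 bases for Gria1 to 6680 for Gria2, the values are sums over transcripts, and alternatively spliced or RNA-edited forms of the subunits were not separated. The estimated counts behind them ranged from 10306 to 20314 for Gria2 in the 13 BLA libraries down to 34 to 85 for Grin3a in the 12 DG libraries, so that Grin3a and Grin2d (171 to 316 in the DG) carried the largest counting error of the family.

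Between the regions, 5 of the 10 genes were higher in the DG and 3 were lower by edgeR's quasi-likelihood test at a Benjamini-Hochberg adjusted p under 0.05. Most genes separated these tissues: of 15453 genes tested, 36.6% were higher and 41.3% were lower in the DG, so 5 and 3 of 10 are close to the background. The effective lengths also differed by region: the tables took 50 bases off the gene length in the BLA and 258 to 274 in the DG. A difference in how the libraries were made or quantified therefore cannot be told apart from region. The sizes and the directions are therefore given gene by gene, together with the shares within each family.

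Gria1 encodes the AMPA subunit whose trafficking accompanies long-term potentiation. Its TPM was 185, 210 and 228 (lowest, median and highest) over the 12 BLA libraries and 348, 392 and 423 over the 11 DG libraries, without overlap between the regions. The log2 fold change of the counts was 0.83 ± 0.034 (SE; adjusted p = 2.8e-16, edgeR), and the TPM was higher in the DG of all 9 animals with both regions, by 1.75 to 2.14 times.

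Gria2, which controls calcium entry, lay at 182, 217 and 250 TPM in the BLA and at 265, 288 and 331 TPM in the DG. The regions did not overlap, at a log2 fold change of 0.44 ± 0.046 (adjusted p = 7.4e-09, edgeR). Gria3, an AMPA subunit that commonly pairs with Gria2, went the other way, with 144, 174 and 203 TPM in the BLA against 104, 118 and 136 TPM in the DG. It was lower in the DG of 9 of 9 animals, at -0.49 ± 0.051 on the log2 scale (adjusted p = 5.8e-09, edgeR).

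Gria4, which is prominent in fast-spiking interneurons, overlapped between the regions, at 23.9, 27.6 and 36.2 TPM in the BLA and 22.7, 28.5 and 36.0 TPM in the DG. Its log2 fold change was -0.03 with a 95% interval of -0.16 to 0.10 (adjusted p = 0.66, edgeR), and it passed the threshold at -0.15 (adjusted p = 0.036) only when the deposited effective lengths entered the fit as an offset. Gria1 and Gria2 were higher and Gria3 lower in the DG in all 34 alternative fits, and the call for Gria4 depended on how the length was handled.

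Grin1, the subunit required in every NMDA receptor, lay at 177, 215 and 252 TPM in the BLA and at 294, 336 and 367 TPM in the DG, and the regions did not overlap. Its log2 fold change was 0.60 ± 0.037 (adjusted p = 7.6e-13, edgeR), and the ratio within the 9 animals ran from 1.42 to 1.85.

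Grin2a and Grin2b, the main forebrain partners of Grin1, went in opposite directions. Grin2a rose from 28.6, 33.0 and 42.4 TPM in the BLA to 76.4, 86.3 and 102 TPM in the DG, without overlap and in 9 of 9 animals, at a log2 fold change of 1.34 ± 0.064 (adjusted p = 5.5e-15, edgeR). Grin2b was at 50.9, 59.2 and 68.5 TPM in the BLA and at 38.6, 49.3 and 55.2 TPM in the DG, where the ranges overlapped and 8 of 9 animals were lower. Its log2 fold change was -0.33 ± 0.062 (adjusted p = 3.8e-05, edgeR).

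Grin2c, which is prominent in the cerebellum and in astrocytes, had a log2 fold change of 0.25 ± 0.066 (adjusted p = 0.0016, edgeR), from 19.2, 24.1 and 28.7 TPM in the BLA to 24.3, 28.8 and 40.9 TPM in the DG. With the effective length offset this was 0.12 (adjusted p = 0.091), so the call did not hold in that fit. Of 5 astrocyte markers, Gfap had the higher median in the DG (390 against 111 TPM), while Aqp4, Aldh1l1, Slc1a2 and Slc1a3 had the lower one there (Slc1a2 459 against 494 TPM), and their part in the Grin2c values was not tested. Grin2d, a subunit known from interneurons and early development, overlapped at 2.96 to 6.66 and 3.50 to 5.94 TPM, with a log2 fold change of 0.01 and a 95% interval of -0.20 to 0.22 (adjusted p = 0.91, edgeR).

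Grin3a showed the largest difference of the 10 genes. It lay at 27.3, 33.5 and 42.2 TPM in the BLA and at 1.70, 2.15 and 2.73 TPM in the DG, where each library held 43 to 85 counts among those used. The log2 fold change was -3.98 ± 0.073 (adjusted p = 1.7e-22, edgeR), rank 20 of 15453 by p, and within the 9 animals the DG level was 0.051 to 0.090 of the BLA level. Over the 34 alternative fits this fold change stayed between -4.07 and -3.43.

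Promoter sequence was at hand from RefSeq (build GRCr8, not the build of the tables) for 5 of the 10 genes, Gria4, Grin1, Grin2c, Grin2d and Grin3a. The 250 bases before the start site that this RefSeq table uses are printed for Grin3a, at chr5:69001559-69001808 on the minus strand, because its level differed most between the regions, and for Grin1, at chr3:28528755-28529004 on the minus strand, as the subunit shared by all NMDA receptors and higher in the DG. Capitals mark CG dinucleotides, and each line runs 5′ to 3′ towards that start site. The RefSeq span of the Grin1 gene ends where its window begins, whereas the span of Grin3a reaches past its window, so that the Grin3a sequence lies inside the gene span, before a start site other than the outermost one.
Grin3a: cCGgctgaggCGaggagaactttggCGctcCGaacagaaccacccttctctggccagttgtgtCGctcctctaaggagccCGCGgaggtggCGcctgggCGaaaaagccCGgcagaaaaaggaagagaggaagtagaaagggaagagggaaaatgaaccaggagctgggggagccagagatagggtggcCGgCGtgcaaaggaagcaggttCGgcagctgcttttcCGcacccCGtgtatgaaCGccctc
Grin1: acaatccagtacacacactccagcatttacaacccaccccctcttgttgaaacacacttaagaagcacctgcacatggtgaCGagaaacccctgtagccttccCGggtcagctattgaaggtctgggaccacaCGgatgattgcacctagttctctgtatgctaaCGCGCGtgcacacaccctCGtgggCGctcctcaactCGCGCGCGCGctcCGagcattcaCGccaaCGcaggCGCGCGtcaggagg

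These windows held 16 CG dinucleotides for Grin3a and 19 for Grin1, the highest counts of the 5 member windows. Those of Gria4, Grin2d and Grin2c held 14, 9 and 8. The median was 5 over 33469 promoter windows of the same length, of which 35.9% held 10 or more. None of the 5 member windows held, on either strand, the GC box GGGCGG (30.5% of all windows), the TATA box TATAAA (12.9%), the cyclic AMP response element TGACGTCA (1.59%), the E-box CACGTG (5.59%) or the glucocorticoid response element (0.373%). This describes the letters in these windows only.

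The composition of each family followed from these levels. Of the summed TPM of Gria1 to Gria4, Gria1 made up 33.6% ± 2.00 in the BLA (SD, n = 12) and 47.1% ± 1.77 in the DG (n = 11), and Gria3 27.2% ± 1.43 and 14.5% ± 0.691. Both shares were without overlap between the regions and moved the same way in 9 of 9 animals. The Gria2 share came to 34.5% ± 1.37 for BLA libraries and 34.9% ± 1.06 for DG libraries, with overlapping ranges of 31.8 to 37.4% and 33.0 to 37.0%. Gria4 made up 4.71% ± 0.552 and 3.54% ± 0.316.

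Of the summed TPM of the 6 NMDA subunits, Grin1 made up 58.1% ± 1.96 in the BLA and 66.1% ± 2.88 in the DG. Grin3a made up 9.02% ± 0.696 in the BLA and 0.435% ± 0.0701 in the DG. Grin2a was 9.22% ± 0.852 of the total in the BLA and 17.4% ± 1.70 in the DG, while Grin2b was 15.9% ± 1.13 and 9.35% ± 1.15, each without overlap. Grin2c (6.51% ± 0.443 and 5.83% ± 0.784) and Grin2d (1.22% ± 0.204 and 0.924% ± 0.123) overlapped. The summed AMPA level was 551 to 711 TPM in the BLA and 758 to 896 in the DG, and the summed NMDA level 311 to 429 and 469 to 546, both higher in the DG of 9 of 9 animals.

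**Figure D2:**
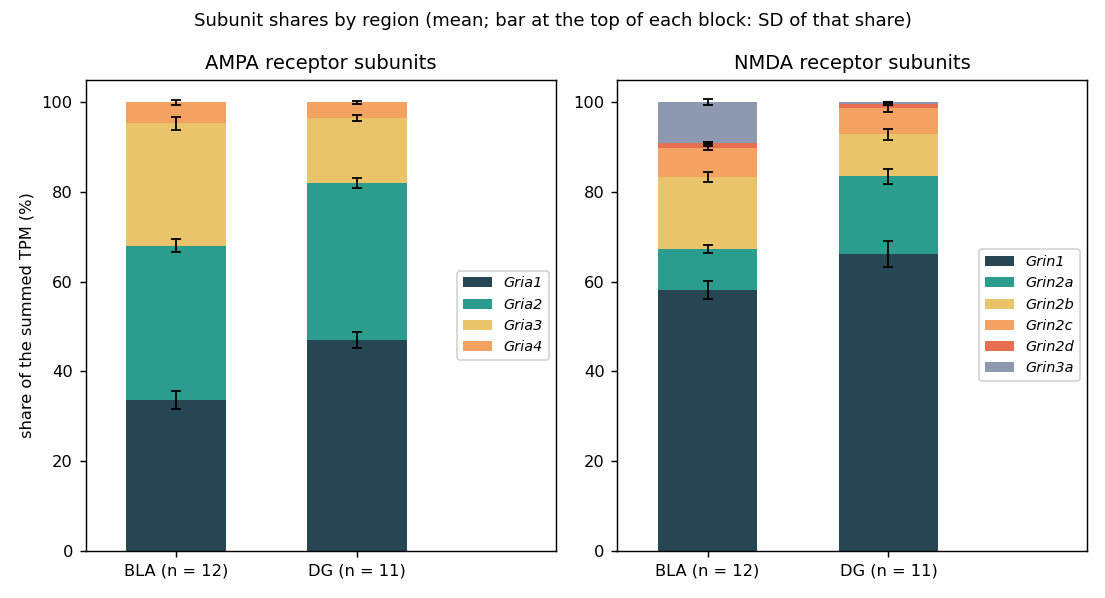
Mean share of each subunit gene in the summed TPM of its receptor family (y axis, %), by region; error bars at the top of each block are the SD of that share over 12 BLA or 11 DG libraries. Gria1 takes 33.6% in the BLA and 47.1% in the DG, and the Grin3a block shrinks from 9.02% to 0.435%.

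Taking only the pair of main Grin2 subunits, Grin2a made up 36.6% ± 1.62 of the Grin2a and Grin2b total in the BLA (range 34.1 to 39.0%, n = 12) and 65.1% ± 1.32 in the DG (63.4 to 67.3%, n = 11), so that the more abundant of the pair was Grin2b in every BLA library and Grin2a in every DG library used. The coefficient of variation of this share in the DG was 2.03%, against 10.8% for the Grin2a level and 11.8% for the Grin2b level. In the BLA these were 4.43%, 12.1% and 10.5%. A scaling shared by both genes within a library cancels in the share, so its coefficient and those of the levels are unlike measures. In the left-out DG library of animal 35 the share was 49.2%, and with it the DG mean was 63.7%. By group, the means in the BLA were 35.4% in stress-low, 36.7% in control and 37.7% in stress-high, and in the DG 63.8%, 65.3% and 66.0%. The ranges of the groups overlapped in both regions, and no test was made of this order (DG stress-low 63.4 to 64.4%, control 64.4 to 65.9%, stress-high 63.7 to 67.3%).

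**Figure D3:**
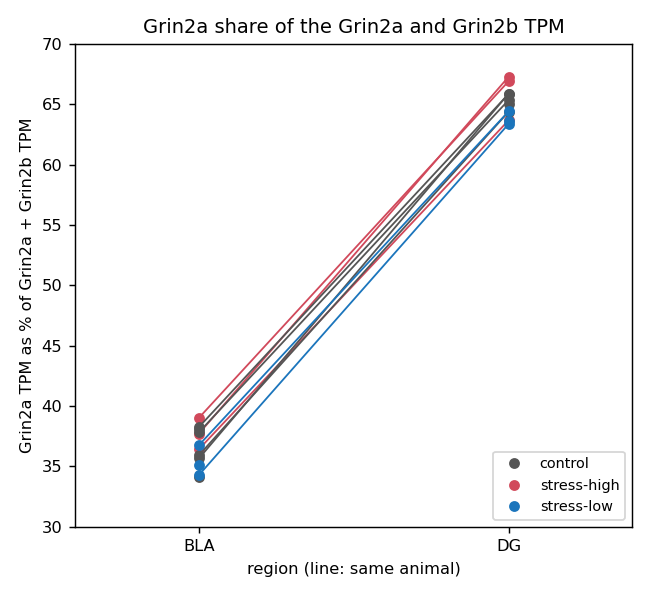
Grin2a TPM as a percentage of Grin2a plus Grin2b TPM (y axis, 30 to 70%) in the BLA and DG; points are libraries, colored by group, and lines join the regions of 1 animal. The library left out in each region is not plotted. All BLA libraries used lie between 34.1 and 39.0% and all DG libraries used between 63.4 and 67.3%.

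Shares also varied within the BLA. Gria3 made up 24.4% of AMPA TPM in stress-low animal 30 and 24.8% in control animal 35, the lowest of the 12 libraries, against 26.2 to 28.6% in the other 10. These were the libraries with the high sums of striatal and central amygdala markers given above, and the part of those cells in the Gria3 share was not tested. Without both libraries the mean Gria3 share in the BLA was 27.8%.

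The first question of the design was whether rats with low and high behavior scores after stress differed. In the BLA, none of the 10 genes passed the adjusted threshold between stress-low and stress-high, nor did any of the 15230 genes tested (0%), and none had an unadjusted p under 0.05, against 1.98% of all genes. The closest was Grin3a, at 33.1, 35.2 and 29.5 TPM in the stress-low and 30.7, 35.5 and 42.2 TPM in the stress-high libraries. The groups overlapped, and the log2 fold change was 0.18 (95% interval -0.02 to 0.38, adjusted p = 1, edgeR). Gria1 had the narrowest interval, -0.15 to 0.10 on the log2 scale around -0.02, with 210, 214 and 211 TPM in stress-low and 189, 193 and 228 TPM in stress-high. Grin2d had the widest, -0.37 to 0.44.

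The share of Grin3a in NMDA TPM did not overlap between these groups, unlike its level. It was 9.13, 9.34 and 8.13% in the stress-low and 9.55, 9.49 and 9.83% in the stress-high BLA libraries, and no other share or summed level was without overlap between groups in either region. The 6 controls covered 7.85 to 10.1%, which spans both groups, and no test was made of the share. For comparison, the TPM of these groups did not overlap for 5.89% of all genes tested, and shares have no such background. This share was picked out of all shares and sums of both regions for its lack of overlap.

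In the DG the same comparison again gave 0 of 10 genes past the adjusted threshold (0% of 14080 genes) and 0 of 10 with an unadjusted p under 0.05 (3.12% of all genes). Grin2b came closest, at 42.9, 55.2 and 49.3 TPM in stress-low and 49.8, 38.6 and 41.9 TPM in stress-high, which overlapped, for a log2 fold change of -0.17 (-0.39 to 0.05, adjusted p = 1, edgeR). Single libraries moved this value, to -0.30 without stress-high animal 7 (adjusted p = 0.89, edgeR) and to -0.08 without stress-low animal 33. Gria1 again had the narrowest interval, -0.10 to 0.15. The TPM of the groups overlapped for all 10 genes in the BLA and all 10 in the DG, while 5.89% and 8.69% of the genes tested had groups that did not overlap.

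Controls were then set against each stress group, and these comparisons share their control libraries. In the BLA, the fold changes of control versus stress-low ran from -0.11 (Grin2a) to 0.08 (Grin2d) on the log2 scale, with 3 genes above 0 and 7 below. None of the 10 passed the adjusted threshold (0% of all genes) or an unadjusted p of 0.05 (2.75% of all genes), and none had groups without overlap (1.39%). For control versus stress-high they ran from -0.08 (Gria3) to 0.16 (Grin3a), with 5 above and 5 below, again 0 of 10 by each of these criteria against 0%, 2.57% and 0.978% of all genes. Grin3a in the control BLA lay at 27.3, 31.7 and 40.1 TPM (lowest, median and highest of 6), overlapping the stress-high values above, with a 95% interval of -0.01 to 0.34 (adjusted p = 1, edgeR). With both stress groups pooled, 0 of 10 passed (0% adjusted and 3.03% unadjusted among all genes), and the largest fold change was that of Grin2d, 0.10 (-0.19 to 0.39).

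In the DG, control versus stress-low had the largest share of all genes at an unadjusted p under 0.05, 6.90%, but 0% past the adjusted threshold. The groups were without overlap for 3.71% of all genes, which was not the largest such share. None of the 10 receptor genes met any of these criteria. Gria3 was at 104, 117 and 130 TPM (lowest, median and highest of 5) in control and at 117, 136 and 123 TPM in stress-low, for a log2 fold change of 0.11 (-0.03 to 0.25, adjusted p = 0.76, edgeR), or 0.05 without stress-low animal 33. Grin2c went lowest, at -0.16 (-0.41 to 0.10, adjusted p = 0.81, edgeR), from 24.3, 30.2 and 40.9 TPM in control to 27.9, 30.7 and 24.5 TPM in stress-low. This value was -0.24 without control animal 32 (adjusted p = 0.75, edgeR) and -0.06 without control animal 17. The highest of these Grin2c values came from control animal 17, whose astrocyte marker sum of 1785 TPM was also the highest of the controls, above 1310 for the next, and its part was not tested.

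For control versus stress-high in the DG, 0 of 10 genes passed the adjusted threshold (0% of all genes), 0 of 10 the unadjusted one (2.19%) and 0 of 10 had groups without overlap (1.46%). The fold changes ran from -0.15 (Grin2c) to 0.21 (Grin3a), the latter with an interval of -0.12 to 0.54 on 1.70, 2.05 and 2.45 TPM in control and 2.73, 1.96 and 2.31 TPM in stress-high. The Grin3a value was 0.06 without stress-high animal 7, and the Grin2c value -0.23 without control animal 32 and -0.05 without control animal 17. Control versus both stress groups gave 0 of 10 (0% adjusted and 4.42% unadjusted among all genes).

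By DESeq2 and limma, too, 0 of 10 passed the adjusted threshold in each of these within-region comparisons. Over the 8 comparisons, 80 fold changes of receptor genes ranged from -0.17 to 0.21 on the log2 scale, and the limits of their 95% intervals reached 0.54. Over all settings the range was -0.40 to 0.345, and both ends came from the fit with the animal number as a covariate: Grin2c in the DG (adjusted p = 0.87, edgeR) and Gria4 in the BLA (adjusted p = 1, edgeR), both for stress-low versus stress-high. An exact permutation test (two-sided) of the TPM values gave its lowest unadjusted p, 0.20, for Gria2 between stress-low and stress-high in the BLA, over 60 tests. That comparison of 3 against 3 libraries cannot go below an exact p of 0.10, and the smallest exact p was 0.012 for 6 against 3 and 0.018 for 5 against 3. The intervals allow changes of the size they span, and values that miss the threshold do not show that the groups are alike.

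**Figure D4:**
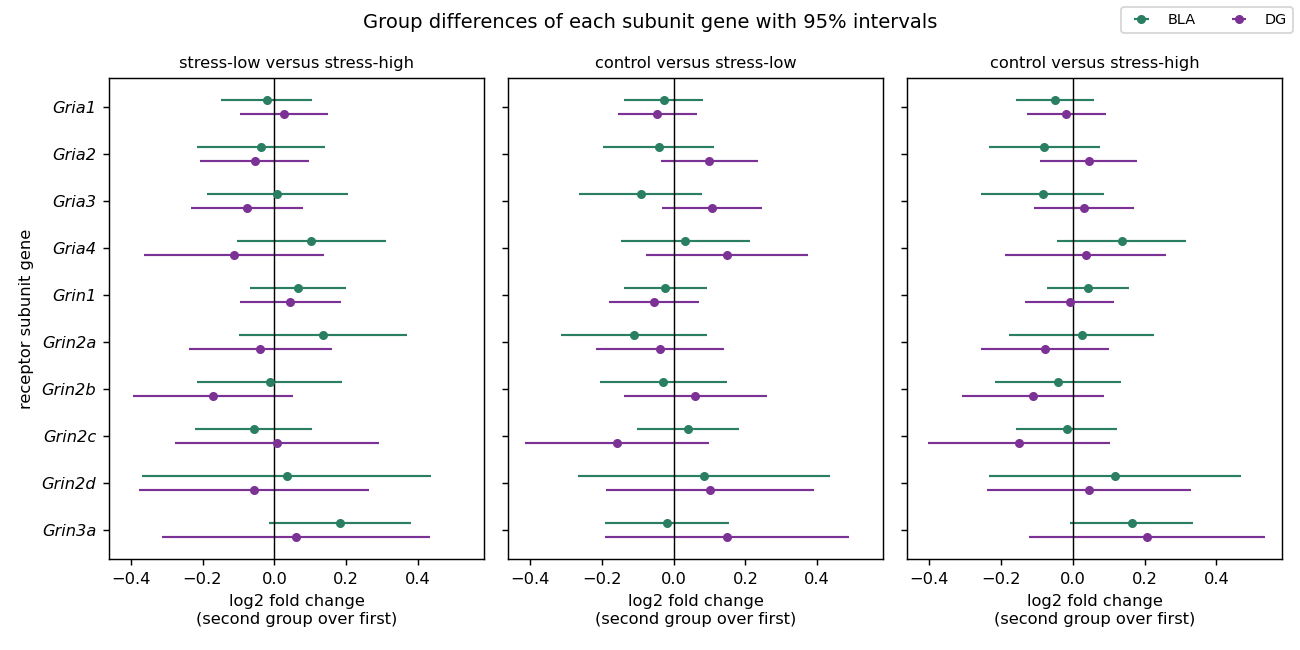
Log2 fold changes (x axis, second group over first) of the 10 genes with 95% intervals from edgeR for the 3 pairwise group comparisons, in the BLA (green) and DG (purple). The points lie between -0.17 and 0.21 and all intervals include 0.

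Whether the group differences themselves differed between the regions was tested in a joint fit. For stress-low versus stress-high, control versus stress-low and control versus stress-high, 0 of 10 genes passed the adjusted threshold, against 0% of 15453 genes each time. For Gria3 between control and stress-low, with fold changes of -0.09 in the BLA and 0.11 in the DG when each region was fitted alone, the difference was 0.19 with an interval of -0.05 to 0.42 (adjusted p = 1, edgeR).

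Partners of the receptors were described from lists of 63 genes, all of which were tested. Between control, stress-low and stress-high, 0 of 63 passed the adjusted threshold in any within-region comparison. At an unadjusted p under 0.05 the count was 1 (stress-low versus stress-high), 2 (control versus stress-low) and 2 (control versus stress-high) of 63 for BLA libraries, and 2, 6 and 0 of 63 for DG libraries, where the background shares were those given above. Among these was Adarb1, which edits the Gria2 transcript, at 0.16 ± 0.071 for stress-low versus stress-high in the BLA (adjusted p = 1, edgeR). Akap5, an anchor of kinases at the synapse, was at -0.28 ± 0.099 for control versus stress-low in the DG (adjusted p = 0.72, edgeR). For control versus stress-low, CAMK2A, a kinase of synaptic plasticity, was at -0.19 ± 0.081 in the BLA (adjusted p = 1, edgeR) and -0.16 ± 0.066 in the DG (adjusted p = 0.72). The BLA and DG libraries come largely from the same animals, so these CAMK2A values are not independent. Camk2d, of the same kinase family, went the other way in that DG comparison, at 0.24 ± 0.10 (adjusted p = 0.72, edgeR).

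Between the regions, 33 of the 63 partners were higher and 24 lower in the DG, beside 36.6% and 41.3% of all genes. Of 18 AMPA auxiliary subunits and assembly factors, 12 were higher and 5 lower, with a median log2 fold change of 0.43 against -0.04 over all genes. They were led by Shisa6, an auxiliary AMPA subunit, at 7.08 to 10.1 TPM in the BLA and 49.6 to 58.4 in the DG (2.596 ± 0.058, adjusted p = 6.1e-21, edgeR), and Porcn, at 27.6 to 38.6 and 99.1 to 122 TPM (1.66 ± 0.040, adjusted p = 2.0e-20). Of 20 scaffolds and anchors, 8 were higher and 10 lower, with a median of -0.07. Homer3 lay at 6.31 to 9.01 TPM in the BLA and 59.8 to 103 in the DG, and Dlg1 at 46.2 to 60.3 and 14.6 to 20.6.

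Of 15 kinases, editing and co-agonist enzymes, 8 were higher and 5 lower in the DG (median 0.07). The subunits of the CaM kinase II family split, with Camk2d at 83.0 to 116 TPM in the BLA and 4.97 to 6.99 in the DG (-4.05 ± 0.062, adjusted p = 1.4e-23, edgeR) and Camk2b at 265 to 349 and 1223 to 1380 (2.04 ± 0.034, adjusted p = 3.1e-23). Of 9 kainate and delta receptor genes, 4 were higher and 4 lower (median 0.08). Grik4, a kainate subunit, was at 5.26 to 15.0 and 58.1 to 85.1 TPM, and Neto2, a kainate auxiliary subunit, at 29.4 to 39.0 and 8.35 to 15.7. Grin3b, the other glycine-binding NMDA subunit of the Grin3 type, rose from a median of 0.905 TPM in the BLA to 1.95 TPM in the DG, at 1.05 ± 0.16 (adjusted p = 1.9e-06, edgeR), the opposite direction to Grin3a.

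Levels of the subunits varied together over libraries to different degrees. In the DG, Grin2a and Grin2b had a Pearson r of 0.87 over 11 libraries and Gria3 and Gria4 of 0.89, while Grin1 ran against Gria4 (-0.80) and Gria2 (-0.75). Of these 11 libraries, stress-low animal 33 had the lowest Grin1 (294 TPM) and the highest Gria4 (36.0) and Gria2 (331). Control animal 2 had the highest Grin1 (367 TPM) and the lowest Gria4 (22.7). In the BLA, Grin1 had an r of 0.61 with Gria4 and 0.07 with Gria2. In the BLA, Grin2a and Grin2b had an r of 0.81 over 12 libraries, Gria3 and Grin2a 0.83 and Grin1 and Grin2d 0.81. These are descriptions over libraries of all 3 groups that share a scaling within each library. Among the genes most like Gria2 by Pearson r of log2(TPM + 1) over libraries, taken from those with a mean of at least 5 TPM, were Strbp (0.95), Itsn2 (0.93) and Taf9b (0.93) in the BLA and Pdzd8 (0.98) and Xpr1 (0.97) in the DG. For Grin2b they were Sidt1 (0.94), Spock1 (0.92) and Cpd (0.92) in the BLA and Klhl32 (0.95), Ahi1 (0.93) and Tbc1d31 (0.92) in the DG.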

How the data were processed

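Bulk RNA-seq of the left BLA and dorsal DG was analysed from 1 deposited table per region. According to the submitters' processing notes and the study's methods, STAR 2.6.0a mapped the reads on rat assembly Rn5, and RSEM 1.3.1 gave the authors estimated counts, TPM and effective lengths per gene; the deposited expected counts and TPM were used as they stood. Expected counts were rounded. edgeR 4.0.16 (R 4.3.3) was run with TMM scaling, a minimum count of 10 and quasi-likelihood tests on all genes, with the group means of each region, or of both regions, as terms. Calls were made at a Benjamini-Hochberg adjusted p of 0.05. Intervals are the estimate with normal 95% limits, which are somewhat narrower than limits from a t distribution for so few libraries. The study's tool, EBSeq, was not used here. In each region the control library farthest out on the first principal component of log2(TPM + 1) was left out, since the study left out 1 library per region; all libraries together were an alternative. DESeq2 1.42.0 and limma 3.58.1 were others.

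The members and lists were chosen with earlier results of these data known. The text names all 10 members, in each comparison up to 2 genes of each partner list with the smallest p (a selection of these is given), and the 3 genes most like Gria2 and Grin2b in each region, of which 1 is not reported here. The printed region values are unpaired; an alternative paired libraries of the same animal by the animal labels as a block. Their deviations from the group means correlated at 0.064 to 0.16 over 14252 genes in 9 animals. On simulated counts with planted fold changes of 2, the tests were checked before use. This check does not cover changes as small as those of the members within regions. P-values within a region measure the spread between animals, 1 library each. The printed ones between regions and for region differences treat the libraries as independent, although 9 animals gave 2 libraries each. The range of depth over libraries is given in the text; it limits Grin3a and Grin2d most.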

Additional observations from a re-analysis of the deposited data

Results flagged for a closer look

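Of 70 sets of control values examined, 5 had a highest or lowest library whose gap to its nearest neighbour exceeded Dixon's 95% limit for the range of the group, and chance alone would give about 5% of sets. In BLA controls, the Gria3 share of animal 35 was low at 24.8% (next 27.2%) and the Gria4 share of animal 27 was high at 5.27% (next 4.48%). The sum of striatal and central amygdala markers was 249 TPM in BLA control animal 35 (next 113). In DG control animal 17, the sum of astrocyte markers was 1785 TPM (next 1310) and that of oligodendrocyte precursor markers 24.6 TPM (next 21.1).

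The left-out BLA control library of animal 2, which entered only the alternative with all libraries, held more of 3 subunit transcripts than any of the 6 other controls: Gria1 at 274 TPM (highest other 228), Grin1 at 273 TPM (highest other 234) and Grin2c at 32.6 TPM (highest other 25.3). The cause was not tested.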

How the results depend on the processing

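The count of called members was 0 in all 8 within-region comparisons and 3 region differences under every alternative run, and 8 in BLA versus DG. With the effective length offset, Gria4 (-0.15) gained and Grin2c (0.12) lost its call in BLA versus DG, and no called member changed direction. Of 1670 within-region values over all settings, 14 had an unadjusted p under 0.05, the lowest for Grin3a in BLA control versus stress-high without control replicate 6 (0.22). That value had an edgeR adjusted p of 1, and the lowest adjusted p of all settings was 0.48. With the animal number as a covariate, Gria4 in BLA stress-low versus stress-high went from 0.10 to 0.345 and Grin2c in DG stress-low versus stress-high from 0.01 to -0.40, neither called. Over all genes edgeR called 0 within regions, with 302 to 972 at an unadjusted p under 0.05. DESeq2 called 1 for BLA stress-low versus stress-high, 1 for control versus stress-low, 2 for control versus stress-high and 1 for control versus exposed, in the DG 4, 5, 1 and 1, and for the region differences 1, 2 and 2. In the BLA, limma on log2(TPM + 0.1) called 1 for stress-low versus stress-high, 2 for control versus stress-low and 1 for control versus exposed, and limma without a filter called 1 for stress-low versus stress-high, 1 for control versus stress-high and 1 for control versus exposed. For BLA control versus stress-high, 1 gene was called with only the groups compared and 1 without animals 30 and 35, an alternative chosen after seeing the data. Leaving out 1 library gave 0 to 1 genes in the 3 BLA comparisons other than control versus stress-low (1 without stress-high replicate 3), 0 in the other within-region and region difference tests, and 11932 to 12084 in BLA versus DG. The cause was not tested.

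The replicate block changed no count of members (0 within regions by title number, 8 in BLA versus DG by animal). Over all genes it gave 0 within regions, 11874 in BLA versus DG and 1 for the region difference of control versus stress-high. Mean shares moved by over 1 SD for Gria2 in the DG with full lengths (36.0%) and for Grin2a of Grin2a and Grin2b in the DG with all libraries (63.7%). EBSeq was not run. Depth limits Grin3a in the DG most.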

Other observations

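The left-out DG control library of animal 35 lay below all 5 other controls for 8 of the 10 subunits. Grin2a was at 18.8 TPM (others 76.4 to 102), Grin2b at 19.4 (41.1 to 52.9), Gria1 at 224 (361 to 423), Gria2 at 202 (265 to 301) and Grin3a at 0.98 (1.70 to 2.45). Grin2c (26.6) and Grin2d (3.76) were inside the range of the other controls. Its Grin1 share was 81.6% of NMDA TPM, above 62.6 to 70.1% in the others. The study left out a re-extracted hippocampal control sample of low RNA quality, as given above. The part of RNA quality in these values was not tested.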
